A study of Rattus norvegicus with 8 samples.

Results

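The genes described here build, cut and bind the extracellular matrix: collagens, laminins, fibulins, fibrillins, small proteoglycans, matrix metalloproteinases (Mmp), their tissue inhibitors (Timp), Adamts proteases, lysyl oxidases and integrins. They were taken by gene name, as every name on the array with a set start for each family, together with Dcn, Lum, Ogn, Mgp, Fn1 and Sparc. Genes of these kinds with other names, such as the integrin chain Itgam and the proteoglycan Bgn, are outside the set. Counts of a family below are counts within the set. The rule uses names alone, but it was set with earlier results of these data known. The names came to 128 genes on 163 probes, of which 123 are matrix genes, and 5 share only the start of a name with them. Of the 128, 87 gave a usable signal and were tested, 84 of them matrix genes, among 17361 genes tested in all. The integrin gene Itgb7 was left out of the set by its rule.

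Collagens assemble into fibrils or, in the case of type IV, into the sheet of a basement membrane, where they meet laminins. Metalloproteinases and Adamts proteases cut these proteins, Timp proteins block the metalloproteinases, lysyl oxidases cross-link collagen and elastin, and integrins are the alpha-beta receptor pairs by which cells hold on to the matrix. In the pituitary, basement membranes surround the sinusoid capillaries and the parenchymal cell cords, and pericytes and fibroblast-type cells of the stroma are known as makers of collagen.

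Total RNA came from the pituitary of lactating Wistar rat dams on postpartum day 7. The animals were 4 control dams and 4 dams exposed to TCDD, the most toxic of the dioxins and the one by which the class is usually studied, and both groups had given birth and were nursing. Each dam had 1 Agilent 1-colour array, and dose, route and time of exposure were not used here because the labels do not state them. The 4 control arrays lay on 1 slide and the 4 TCDD arrays on the other, so that slide and treatment cannot be told apart. The 75th percentile of the processed signal lay between 765 and 932 on the 8 arrays, and the share of spots marked well above background between 71.1% and 73.9%. All 7 anterior pituitary hormone genes listed as tissue markers were well above background on all 8 arrays. As a check of the labels, Cyp1a1, the cytochrome that the dioxin receptor switches on, was well above background on 0 of 4 control and 4 of 4 TCDD arrays (log2 level -7.40 ± 0.58 against -3.42 ± 0.70, SD, n = 4 each, adjusted p = 0.028, limma).

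Levels are log2 processed signals minus the array's 75th percentile, so a level of 0 marks a spot as bright as that percentile, and they are compared between arrays, not between genes. A change is the TCDD mean minus the control mean on that scale, with the standard error (SE) of the limma fit, and an adjusted p is its Benjamini-Hochberg value over all 17361 genes, with 0.05 as the threshold. An exact permutation p, two-sided over the 70 ways to split 8 arrays into 4 and 4, stands beside it where given and cannot fall below 0.029. The tissue was measured in bulk, so fewer cells of a type and less RNA per cell cannot be told apart.

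No matrix gene passed the threshold in limma: 0 of the 87 measured members, against 0.0806% of all genes tested, and the lowest adjusted p among the members was 0.31, for Col16a1. At an unadjusted p under 0.05 there were 7 members, 8.05% of those measured, against 10.7% of all genes. The 7 comprised 2 that were higher after TCDD, Col11a1 and Col5a3, against 7.76% of all genes, and 5 that were lower, Col16a1, Itga6, Itgb8, Col27a1 and Adamts15, against 2.95%. That split moved with the scaling: with arrays centred on their median it was 1 higher and 8 lower, while the split of all genes went from 1348 higher and 512 lower to 755 higher and 813 lower. It also moved with single arrays: 3 members (3.45%) stood at that p without control replicate 1, without control replicate 3 or without TCDD replicate 4, against 8.09%, 8.95% and 9.75% of all genes, and 11 (12.6%) did without control replicate 2, against 8.45%. The members' share thus lay below that of all genes with every array in, and above it without control replicate 2, with median centring (10.3% against 9.03%) and in the deposited table (10.3% against 9.98%). The share that was lower, 5.75% with every array in, was 2.3% without control replicate 1, control replicate 3 or TCDD replicate 4, against 2.34%, 2.87% and 2.86% of all genes, and 11.5% without control replicate 2, against 2.35%. It was 9.2% with median centring, against 4.68%, and 8.05% with quantile normalization, against 4.08%. With normexp background correction and quantile normalization together it was 6.9%, against 4.87%. Among genes well above background on all 8 arrays 3 members were lower, 3.9% against 2.89%. That filter left out Itga6 and Itgb8, well above background on 1 and 2 TCDD arrays.

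The fitted changes of the members lay about 0. They were above 0 for 44 members and below 0 for 43, against 56.4% above 0 for all genes, and ranged from -0.90 to 0.40, while all genes ranged from -1.80 to 3.98, the last being the fitted change of Cyp1a1, which was at background in the controls. Their median was 0.0049, against 0.02 over all genes, and it lay between -0.03 and 0.02 under the other scalings, filters and probe rules. A change of at least 1.5-fold either way was fitted for 2 members, Itga6 and Col16a1, 2.3% against 2.48% of all genes, and for 1 member with normexp background correction and quantile normalization together. Many fitted changes were small for their error and moved with single dams: of 47 members followed over all settings, 36 had a change that moved by over 1.5 times when some 1 array was left out. The groups did not overlap for 1 member, Itga6, which is 1.15% against 7.1% of all genes. Among all genes 1.91% were without overlap and lower, as Itga6 was, and 5.19% without overlap and higher, where no member stood. Precision set the limit on what these arrays could show: the 95% confidence interval lay within a 1.5-fold change either way for 46 of the 87 members and within a 2-fold change for 79.

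**Figure D1:**
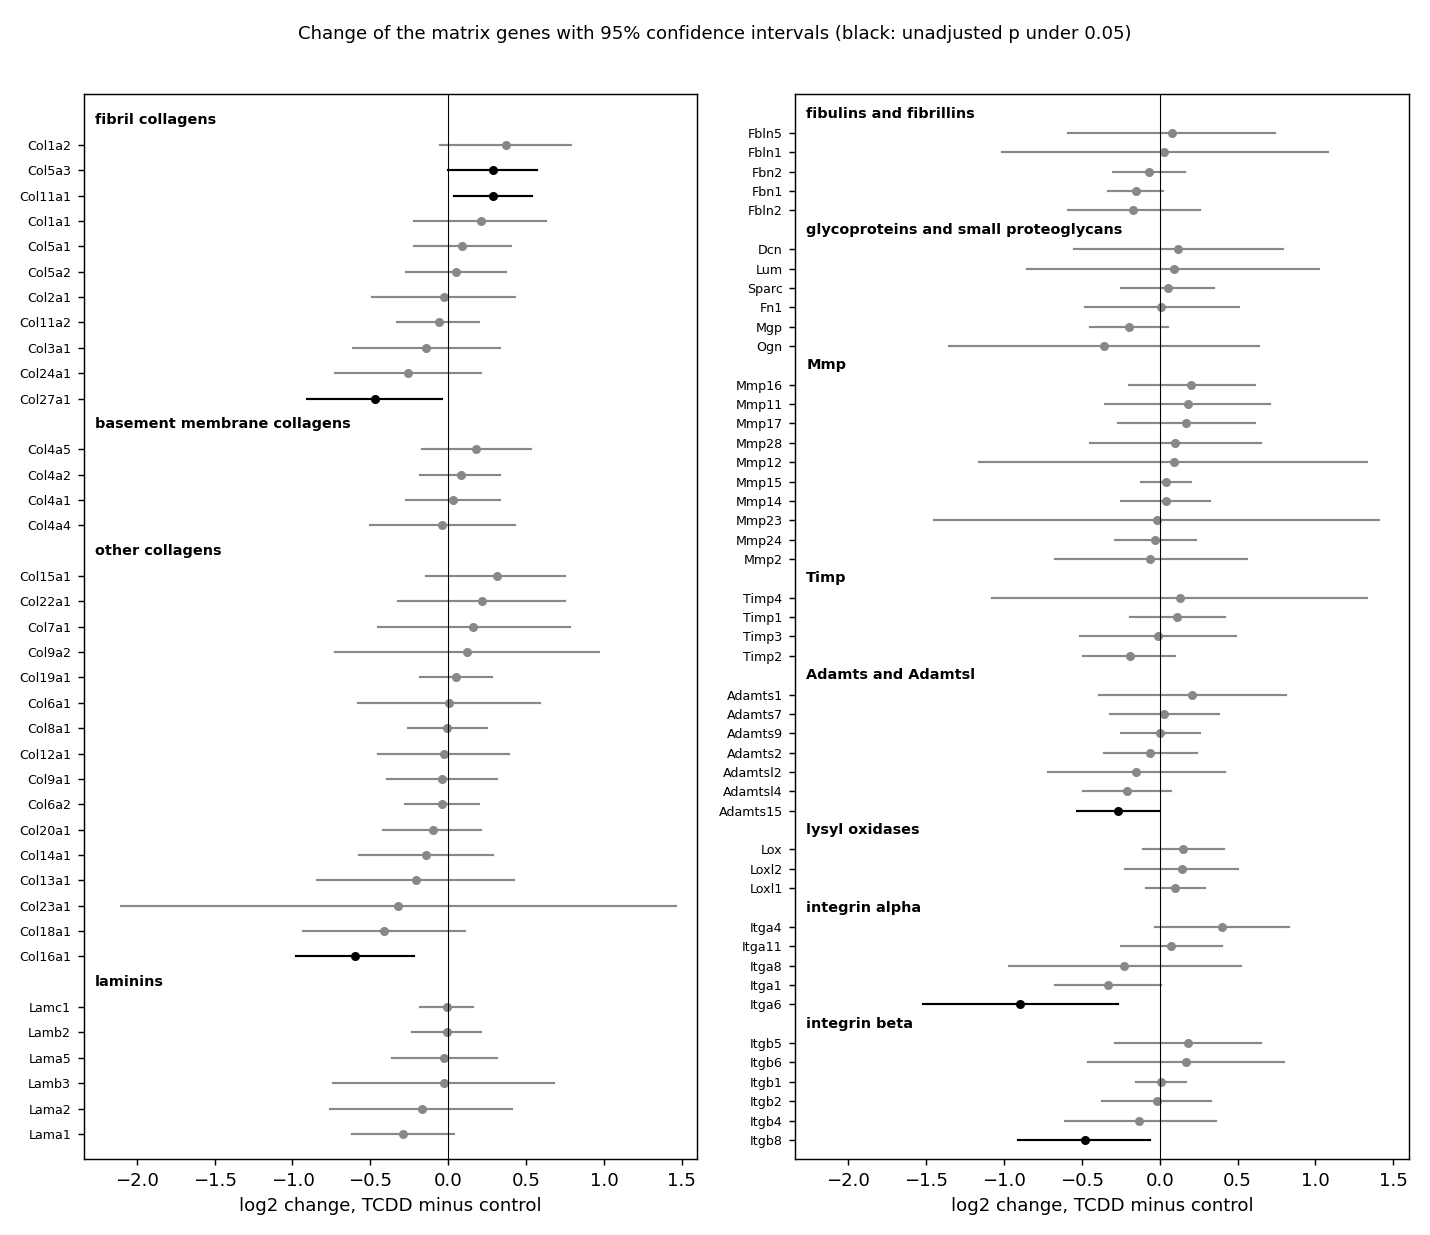
Log2 change (TCDD minus control, horizontal axis) of 83 of the 84 measured matrix genes with its 95% confidence interval from limma, grouped by role and ordered within each class; black marks an unadjusted p under 0.05. The intervals of all but 7 genes cross 0, and the points lie between -0.90 and 0.40.

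TCDD acts through the aryl hydrocarbon receptor, which binds DNA as a pair with its partner Arnt at a short core, GCGTG, read on either strand. The windows of 250 bases before the annotated gene starts were searched for that core because it is the site by which this agent is known to act. RefSeq promoters of the GRCr8 assembly were found by symbol for 99 of the 128 members. The core stood in 32 of these 99 windows (32.3%), against 27.2% of 27457 windows of all genes, tested here or not. Of the 10185 tested genes with a window, 4382 held the core, a larger share than that of the measured members given next. Of the 64 measured members with a window, 23 held the core, with a median change of 0.0049 and 12 of them above 0, and 41 did not, with a median change of 0.0097 and 21 above 0. An unadjusted p under 0.05 was reached by 4 members with the core and 1 without it. Over all 10185 tested genes with a window, that p was reached by 7.96% of genes with the core and 9.79% without it. The windows of the 4 members follow, from 5′ to 3′ on the gene's strand, with the core in capitals as GCGTG or, from the other strand, as CACGC.
Col16a1, chr5:147672846-147673095, plus strand: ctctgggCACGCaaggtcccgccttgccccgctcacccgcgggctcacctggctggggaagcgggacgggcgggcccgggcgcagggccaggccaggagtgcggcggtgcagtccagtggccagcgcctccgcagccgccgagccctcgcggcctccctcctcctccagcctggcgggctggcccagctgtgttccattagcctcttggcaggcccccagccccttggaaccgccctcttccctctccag
Itgb8, chr6:146351246-146351495, minus strand: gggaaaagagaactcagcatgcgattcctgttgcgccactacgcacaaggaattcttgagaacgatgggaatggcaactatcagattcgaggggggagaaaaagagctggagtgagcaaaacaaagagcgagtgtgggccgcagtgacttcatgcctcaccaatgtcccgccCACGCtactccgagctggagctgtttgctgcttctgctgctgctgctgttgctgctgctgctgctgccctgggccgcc
Col27a1, chr5:81662658-81662907, plus strand: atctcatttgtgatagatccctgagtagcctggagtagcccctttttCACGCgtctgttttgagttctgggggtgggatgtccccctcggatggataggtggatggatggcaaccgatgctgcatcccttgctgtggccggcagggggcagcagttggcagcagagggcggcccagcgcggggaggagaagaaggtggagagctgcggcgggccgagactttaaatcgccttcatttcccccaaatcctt
Col5a3, chr8:27625949-27626198, minus strand: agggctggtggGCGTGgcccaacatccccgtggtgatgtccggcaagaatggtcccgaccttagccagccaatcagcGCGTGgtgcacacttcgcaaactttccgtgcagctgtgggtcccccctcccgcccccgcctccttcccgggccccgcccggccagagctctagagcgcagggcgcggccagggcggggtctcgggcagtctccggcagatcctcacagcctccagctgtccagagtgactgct
Col5a3 held 2 cores, and the others held 1 each. A match of these letters is a description of the window and no sign of binding. Of the other 3 members at that p, Col11a1 had a window with no core, and none was listed for Itga6 or Adamts15. The AP-1 site TGAGTCA, searched on both strands because many metalloproteinase genes are known to carry it, stood in 7 of the 99 windows (7.07%), against 3.98% of all windows. It overlapped the GCGTG core in 0 of them.

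All 11 fibril collagen genes on the array were measured, 6 with a change above 0 and 5 below, with a median of 0.05. An unadjusted p under 0.05 was reached by 3 of the 11, where 10.7% of all genes reached it, 2 of them higher and 1 lower after TCDD. Col1a2, one of the chains of type I collagen, the main collagen of scar and stroma, had the widest rise of the class that did not reach that p. Its levels were 2.19, 2.19, 2.05 and 1.98 on control replicates 1 to 4 and 2.28, 2.56, 2.07 and 2.99 on TCDD replicates 1 to 4. The control dams lay close together while 1 TCDD dam, replicate 4, stood well above the rest, and TCDD replicate 3 lay within the control range. The change was 0.37 (SE 0.18, 95% interval -0.05 to 0.79, adjusted p = 0.53, exact permutation p = 0.11), and 0.20 without TCDD replicate 4.

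Col1a1, the other chain of type I collagen, stood at -0.82, -0.82, -0.86 and -1.37 in the control dams and at -0.88, -0.87, -0.30 and -1.0 in the TCDD dams. Most dams of both groups lay near each other, with control replicate 4 low and TCDD replicate 3 high. Its change was 0.21 (SE 0.19, 95% interval -0.22 to 0.63, adjusted p = 0.76), and it was 0.07 without control replicate 4 and 0.05 without TCDD replicate 3. A further Col1a1 probe gave -0.09 (SE 0.26). Col3a1, the partner of type I collagen in soft tissue, was at -0.25, -0.42, -0.66 and -1.10 in controls and at -0.34, -0.96, -0.81 and -0.87 after TCDD, a change of -0.14 (SE 0.20, 95% interval -0.61 to 0.33). The dams of both groups covered much the same range, again with control replicate 4 lowest.

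Among the minor fibril collagens, which sit inside or seed larger fibrils, Col11a1 stood at -0.93, -1.17, -0.97 and -0.89 in controls and at -0.98, -0.56, -0.64 and -0.63 after TCDD. TCDD replicates 2 to 4 lay above every control, and TCDD replicate 1 lay among them. The change was 0.29 (SE 0.11, 95% interval 0.04 to 0.54, p = 0.026, adjusted p = 0.41, exact permutation p = 0.11), and its other probes gave 0.28 (SE 0.14) and 0.08 (SE 0.22). The probe used lies at chr2:210193319-210193378 of rn4, the build of the array's probe positions.

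Col5a3, a chain of the type V collagen that is built into type I fibrils, was at -2.29, -2.40, -2.65 and -2.20 in controls and at -2.25, -2.21, -1.85 and -2.09 in TCDD dams. TCDD replicates 3 and 4 exceeded all controls, the other two did not, and the change was 0.29 (SE 0.12, 95% interval 0.001 to 0.57, p = 0.049, adjusted p = 0.46, exact permutation p = 0.086). Its chains Col5a1 and Col5a2 had changes of 0.09 (SE 0.13) and 0.05 (SE 0.14).

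Col27a1, a fibril collagen best known from cartilage, pointed the other way. Control levels were -0.42, -0.76, -0.36 and -0.48, and TCDD levels were -1.37, -1.14, -0.45 and -0.95. TCDD replicates 1, 2 and 4 lay below every control, and replicate 3 lay within the control range. The change was -0.47 (SE 0.19, 95% interval -0.91 to -0.04, p = 0.037, adjusted p = 0.44, exact permutation p = 0.086) at a probe at chr5:80316275-80316334 of rn4. Col24a1, its nearest relative in the class, had a change of -0.26 (SE 0.20).

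**Figure D2:**
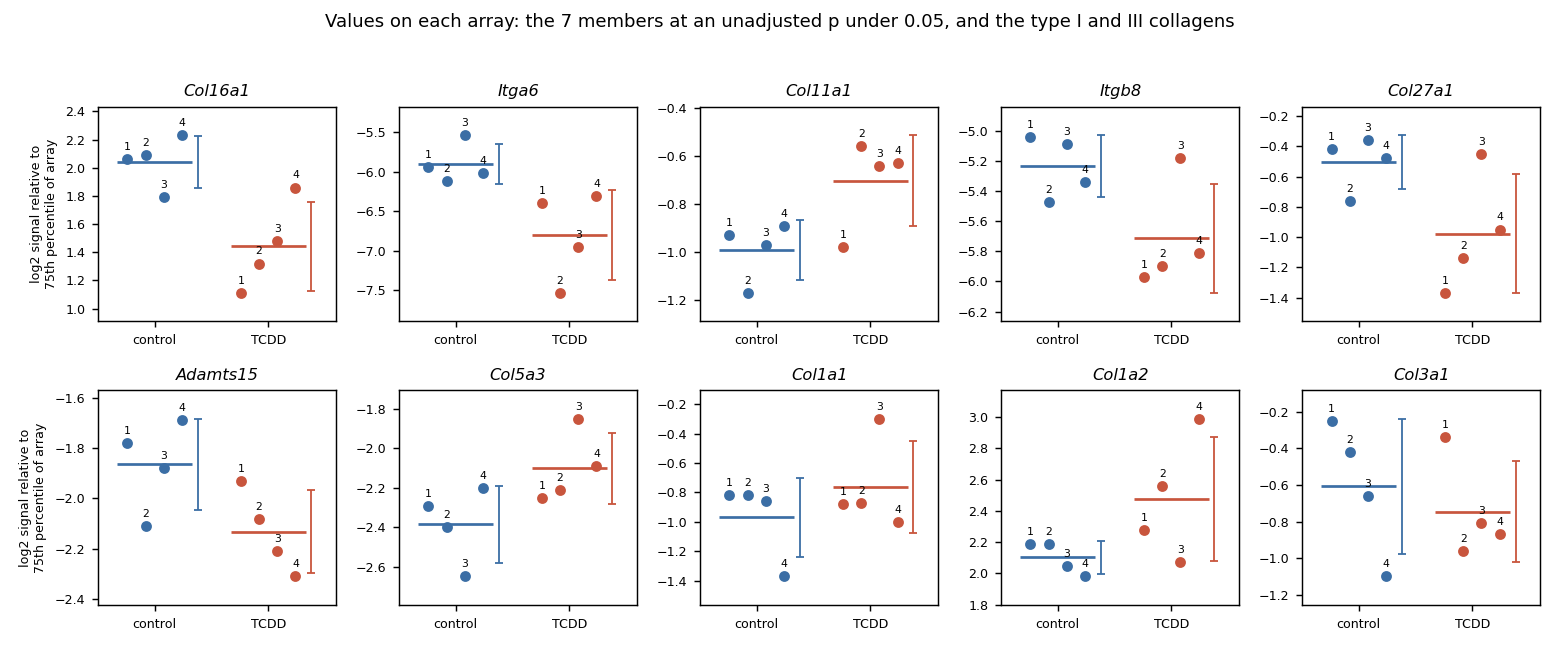
Log2 signal relative to the array's 75th percentile (vertical axes, each gene on its own scale) of the 7 members at an unadjusted p under 0.05 and of Col1a1, Col1a2 and Col3a1, with a point and replicate number for each array, the group mean as a line and the SD as a bracket (n = 4 per group). Only for Itga6 do the 2 groups keep apart, and for Col16a1, Col11a1, Itgb8 and Col27a1 1 TCDD array lies within the control range.

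Of the 5 basement membrane collagen genes, 4 were measured, and their changes lay between -0.04 and 0.18, with 0 at an unadjusted p under 0.05. Col4a1, which with Col4a2 makes up the network found in nearly all basement membranes, stood at 0.24, 0.16, -0.09 and 0.34 in controls and at 0.37, 0.34, 0.14 and -0.09 in TCDD dams. Col4a2 stood at -3.39, -3.59, -3.91 and -3.48 and at -3.54, -3.49, -3.54 and -3.49. Both genes overlapped fully between the groups, with changes of 0.03 (SE 0.13, 95% interval -0.27 to 0.33) and 0.08 (SE 0.11, 95% interval -0.18 to 0.33), and without control replicate 3 these were -0.05 and -0.03. Col4a5 had a change of 0.18 (SE 0.15) and Col4a4 one of -0.04 (SE 0.20), which was 0.08 without control replicate 3.

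Col4a1 and Col4a2 lie head to head and are read outward from one short shared promoter. In the RefSeq annotation of GRCr8 their starts enclose 76 bases, shown here on the plus strand because this stretch belongs to both genes, with a GC box, GGGCGG, in capitals as read from the other strand.
Col4a1 and Col4a2, chr16:84885521-84885596, plus strand: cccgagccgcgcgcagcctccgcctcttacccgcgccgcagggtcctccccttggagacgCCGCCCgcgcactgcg
No GCGTG core stood in this short stretch. In the longer windows searched for all members, Col4a1 and Col4a2 each held 1 core. The GC box letters stood in 1 place of the short stretch. They stand in 19.3% of the windows of its length next to the starts of all genes. The second Col4a1 probe on the array lies in the triple-helix repeat, and it is shown because the repeat can be read off it: glycine codons (GGN, in capitals) recur along its whole length, each followed by a pair of other codons. Of 54 collagen probes searched, 1 held such a run from end to end.
Col4a1 probe, chr16:83146135-83146194 of rn4, plus strand: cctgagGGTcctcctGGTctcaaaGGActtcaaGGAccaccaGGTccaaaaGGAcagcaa
At this probe, with 6 glycine codons, the change was 0.30 (SE 0.16), against 0.03 (SE 0.13) at the probe used. The widest difference in change between kept probes of a member was 0.30, for Col1a1. Of 12 members with more than 1 kept probe, 4 had probes of opposite sign, Col1a1, Itgb1, Mmp15 and Timp4.

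The other collagens, which coat fibrils, span membranes or carry the fragments known as endostatin, numbered 21, and 16 were measured, 6 with changes above 0 and 10 below. Col16a1 belongs to the collagens with interrupted helices that link fibrils to other matrix, and it had the lowest p of all members. It stood at 2.06, 2.09, 1.79 and 2.23 in the control dams and at 1.11, 1.32, 1.48 and 1.86 in the TCDD dams. TCDD replicates 1 to 3 lay below every control, and TCDD replicate 4 lay just above the lowest control. The means were 2.04 ± 0.19 and 1.44 ± 0.32 (SD, n = 4 each), a change of -0.60 (SE 0.16, 95% interval -0.98 to -0.22, p = 0.0065, adjusted p = 0.31, exact permutation p = 0.057), and the change ran from -0.74 to -0.49 when each array was left out in turn. Its single probe lies at chr5:149126166-149126225 of rn4, plus strand.

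Col18a1, the basement membrane collagen that yields endostatin, had a change of -0.41 (SE 0.23, 95% interval -0.93 to 0.11). Control levels were -0.24, -0.64, -0.27 and -1.23, and TCDD levels were -0.66, -1.17, -1.05 and -1.15, so that control replicate 4 lay below all TCDD dams. Without that dam the change was -0.62, with an adjusted p of 0.25. Col15a1, its closest relative, pointed upward with a change of 0.31 (SE 0.19, 95% interval -0.14 to 0.75), or 0.17 without control replicate 4. The type VI chains, which form beaded filaments around cells, had changes of 0.0077 (SE 0.25, 95% interval -0.58 to 0.59) for Col6a1 and -0.04 (SE 0.10) for Col6a2. The sign for Col6a1 was negative with quantile normalization, at -0.03.

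Of the 8 laminin genes, whose products are part of the basement membrane as alpha-beta-gamma trimers, 7 were measured, and 6 of them had changes below 0, with a median of -0.03. Lama1 had the lowest, -0.29 (SE 0.14, 95% interval -0.62 to 0.04, adjusted p = 0.54). Lamc1, the gamma chain of most laminins, was among the most precisely measured members, with a change of -0.01 (SE 0.07, 95% interval -0.18 to 0.16). Lama2, the chain known from muscle and nerve, had a change of -0.17 (SE 0.26).

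Fibrillins form the microfibrils that carry elastin, and fibulins bind them. Of these 6 genes 5 were measured, with changes between -0.17 (Fbln2, SE 0.18) and 0.08 (Fbln5, SE 0.29). Fbn1 had a change of -0.15 with a narrow interval of -0.33 to 0.02 (SE 0.08, adjusted p = 0.54, exact permutation p = 0.086). Fbln1 spread most: it stood at -4.48, -5.03, -5.47 and -6.90 in controls and at -5.36, -5.67, -5.27 and -5.46 in TCDD dams. All 4 TCDD dams lay inside the control range, whose low end was control replicate 4, and the probe was well above background on 3 of 4 control and 4 of 4 TCDD arrays. The change was 0.03 (SE 0.45, 95% interval -1.01 to 1.08), and -0.44 without that dam.

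All 6 glycoproteins and small proteoglycans of the set were measured, none at an unadjusted p under 0.05. Mgp, the matrix protein that keeps calcium out of soft tissue, had a change of -0.20 (SE 0.11, 95% interval -0.45 to 0.05), or -0.11 without control replicate 4. Sparc, which binds collagen and tempers its assembly, had a change of 0.05 (SE 0.13), and fibronectin (Fn1), the adhesive protein to which several integrins bind, had one of 0.01 (SE 0.21, 95% interval -0.48 to 0.51), with its sign turned by quantile normalization, at -0.01.

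Decorin (Dcn), lumican (Lum) and osteoglycin (Ogn) are small leucine-rich proteoglycans that set the width and spacing of collagen fibrils. Dcn stood at 1.16, 1.14, 0.77 and 0.23 in controls and at 1.34, 0.36, 0.69 and 1.39 in TCDD dams. Lum stood at -3.18, -3.06, -3.94 and -4.73 and at -2.97, -4.29, -3.58 and -3.73. Control replicate 4 was lowest of the 8 for both, and TCDD replicate 2 was next lowest. Ogn differed in that TCDD replicate 1, at -1.48, lay as low as control replicate 4, at -1.25, while the others stood between -0.49 and 0.27. The changes were 0.12 (SE 0.29), 0.09 (SE 0.41) and -0.36 (SE 0.43). Without control replicate 4 they were -0.08, -0.25 and -0.72, and without TCDD replicate 1 the change of Ogn was -0.03.

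The array held 23 metalloproteinase genes, of which 10 were measured and 13 were not, among them the gelatinase Mmp9, the stromelysins Mmp3 and Mmp10 and the collagenases Mmp8 and Mmp13, on no array well above background. Of the 10, 7 had changes above 0, with a median of 0.06 and a range of -0.06 to 0.20. Mmp2, the gelatinase that cuts type IV collagen, stood at -1.25, -1.57, -2.03 and -2.50 in controls and at -1.73, -2.30, -1.81 and -1.72 in TCDD dams. The TCDD dams lay inside the control range. Its change was -0.06 (SE 0.27, 95% interval -0.67 to 0.56), and without control replicate 1 or 2 it was 0.14 or 0.03. Mmp14, the membrane enzyme that activates Mmp2, had a change of 0.04 (SE 0.12, 95% interval -0.25 to 0.32). Mmp15, its close relative, had one of 0.04 (SE 0.07, 95% interval -0.12 to 0.20). Mmp16, another of these membrane enzymes, had the highest change of the family, 0.20 (SE 0.18).

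All 4 Timp genes were measured. Timp2, which both blocks metalloproteinases and helps Mmp14 to activate Mmp2, stood at 6.72, 6.86, 6.93 and 6.78 in controls and at 6.83, 6.77, 6.66 and 6.26 after TCDD. The groups overlapped, with TCDD replicate 4 lowest, and the change was -0.19 (SE 0.13, 95% interval -0.49 to 0.10), or -0.07 without that dam. Timp1 had a change of 0.11 (SE 0.13, 95% interval -0.19 to 0.42), and Timp3, the inhibitor bound to the matrix itself, one of -0.01 (SE 0.22). Timp4 stood at -3.73, -3.79, -3.55 and -5.95 in controls and at -3.82, -3.95, -3.97 and -4.78 in TCDD dams. Replicate 4 was the lowest dam of either group, and control replicate 4 lay far below every other. The change was 0.13 (SE 0.53, 95% interval -1.08 to 1.33). Without control replicate 4 it was -0.44, and a further probe gave -0.14 (SE 0.39).

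Of 18 Adamts and Adamtsl genes, 7 were measured, 3 with changes above 0 and 4 below. Adamts15, a protease that cuts proteoglycans such as versican, was at -1.78, -2.11, -1.88 and -1.69 in controls and at -1.93, -2.08, -2.21 and -2.31 in TCDD dams. TCDD replicates 3 and 4 lay below all controls, the other two did not, and the change was -0.27 (SE 0.11, 95% interval -0.53 to -0.0031, p = 0.048, adjusted p = 0.46, exact permutation p = 0.086). Adamts1, which cuts versican and aggrecan, had a change of 0.21 (SE 0.26, 95% interval -0.39 to 0.81), which was 0.02 without TCDD replicate 2 and 0.43 without TCDD replicate 3. Of the 5 lysyl oxidase genes 3 were measured, and all had changes above 0: Lox 0.15 (SE 0.11, 95% interval -0.11 to 0.41), Loxl2 0.14 (SE 0.16) and Loxl1 0.10 (SE 0.08, 95% interval -0.09 to 0.29).

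Among the 9 integrin alpha genes of the set, 5 were measured, with a median change of -0.23. Itga6, the chain of the laminin receptors, gave the widest change of all members with the scaling used here. It stood at -5.94, -6.12, -5.54 and -6.02 in the control dams and at -6.40, -7.54, -6.96 and -6.31 in the TCDD dams. Every TCDD dam lay below every control. The signal was near the limit of detection, well above background on 3 of 4 control and 1 of 4 TCDD arrays. The change was -0.90 (SE 0.27, 95% interval -1.52 to -0.27, p = 0.011, adjusted p = 0.33), with an exact permutation p of 0.029, the smallest that the design can give. With normexp background correction and quantile normalization together the change at this dim probe was -0.14, against -0.96 with quantile normalization alone. The probe lies at chr3:54263800-54263859 of rn4, plus strand. Itgb4, the beta chain that pairs with Itga6 in hemidesmosomes, had a change of -0.13 (SE 0.21, 95% interval -0.61 to 0.36).

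Itga1, the alpha chain of a collagen receptor, was at -0.47, -0.65, -0.52 and -0.28 in controls and at -0.38, -1.0, -0.92 and -0.94 in TCDD dams. TCDD replicates 2 to 4 lay below all controls while replicate 1 lay among them, and the change was -0.33 (SE 0.15, 95% interval -0.67 to 0.0099, adjusted p = 0.48), or -0.47 without TCDD replicate 1, with an adjusted p of 0.29. Itga4, which pairs with Itgb1 on leukocytes, had the highest change of all members with the scaling used here, 0.40 (SE 0.19, 95% interval -0.03 to 0.83), or 0.24 without TCDD replicate 1 and 0.02 with normexp and quantile normalization together. It rested on levels of -5.95, -5.36, -5.75 and -5.51 against -4.75, -5.35, -5.48 and -5.39. TCDD replicate 1 stood apart above the rest, TCDD replicate 2 lay level with the highest control, and the other two lay within the control range.

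Of the 7 integrin beta genes of the set 6 were measured. Itgb1, the partner of most alpha chains, was measured as tightly as any member, at 1.02, 0.97, 1.17 and 0.97 in controls and at 1.04, 1.15, 0.96 and 1.03 in TCDD dams. The groups covered the same range, and the change was 0.0097 (SE 0.07, 95% interval -0.15 to 0.17), with its sign turned by median centring, at -0.03. A further Itgb1 probe gave -0.09 (SE 0.06). Itgb8, which with the integrin alpha V chain releases active TGF-beta, was at -5.04, -5.47, -5.09 and -5.34 and at -5.97, -5.90, -5.18 and -5.81. TCDD replicates 1, 2 and 4 lay below all controls, and this dim probe (chr6:146494978-146495037 of rn4, minus strand) was well above background on 4 control and 2 TCDD arrays. Its change was -0.48 (SE 0.19, 95% interval -0.91 to -0.06, p = 0.031, adjusted p = 0.42, exact permutation p = 0.086), and -0.06 with normexp and quantile normalization together. Itgb5 had a change of 0.18 (SE 0.20), which was -0.00067 without TCDD replicate 3. Itgb7, a leukocyte integrin kept out of the set by its rule, did pass the threshold in the same fit, with a change of -0.94 (SE 0.11, control -4.13 ± 0.10 and TCDD -5.07 ± 0.21, SD, n = 4 each, adjusted p = 0.042, limma). It passed under 5 of the 18 other settings and missed under 13, with an adjusted p of up to 0.32, among them quantile normalization (0.065) and leaving out any array other than TCDD replicate 2.

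Matrix pathway genes outside the set were read from a list of 96 that holds other proteoglycans, elastic fibre proteins, collagen-modifying enzymes, other integrin chains and adhesion proteins. Of these 73 were measured, 38 with changes above 0 and 35 below, with a median of 0.0089, and 0 passed the adjusted threshold. At an unadjusted p under 0.05 there were 4. P4ha3, a collagen prolyl hydroxylase, had a change of 0.52 (SE 0.18) and the adhesion adaptor Pxn one of 0.24 (SE 0.10). The proteoglycan Spock2 had a change of -0.15 (SE 0.06) and talin (Tln1), which links integrins to actin, one of -0.17 (SE 0.07). The 4 are 5.48% of those measured, against 10.7% of all genes.

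Spread between dams of one group was wider for the members than for the run of genes. The median within-group SD of the 87 members was 0.28 on the log2 scale, against 0.15 over all genes tested. It was 0.24 in the control dams and 0.26 in the TCDD dams, against 0.13 and 0.14. It was not particular to the members: the median was 0.30 for the fibroblast and pericyte markers, 0.29 for the folliculostellate and stem cell markers, 0.33 for the posterior lobe, glia and neural markers and 0.22 for the other matrix pathway genes. With only the genes well above background on all 8 arrays, 77 of them members, the medians were 0.24 and 0.14. A within-group SD over 0.2 was found for 60 members, 69%, against 33.7% of all genes, and one over 0.5 for 10 members, 11.5% against 5.91%. Genes are not independent of each other, and these shares carry no test. The median half-width of the 95% interval for a change was accordingly 0.41, against 0.23 for all genes.

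**Figure D3:**
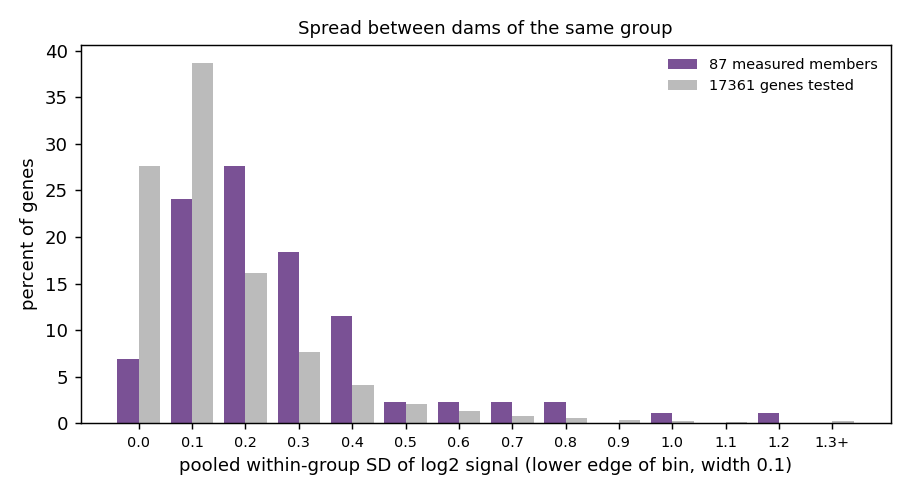
Percent of genes (vertical axis) by pooled within-group SD of the log2 signal (horizontal axis, bins of 0.1), for the 87 measured members and the 17361 genes tested. The members peak between 0.2 and 0.3 with 27.6% of genes, while all genes peak between 0.1 and 0.2 with 38.7%.

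Some dams held the lowest or highest level more often among the members than among all genes. Their part in that spread was not tested. Control replicate 4 gave the lowest of the 8 levels for 29 members, 33.3%, against 19.1% of all genes, and TCDD replicate 2 for 15 members, 17.2% against 11.7%. The highest level fell on control replicate 1 for 16 members (18.4% against 7.4%) and on TCDD replicate 1 for another 16 (18.4% against 11.3%). Members deviated from their 8-array mean by a median of 0.15 in control replicate 1, -0.13 in control replicate 4 and -0.12 in TCDD replicate 2. Of the 77 members well above background on all arrays, 20 ranged over at least 1 on the log2 scale, which is a 2-fold span, and 10 of these were lowest in control replicate 4.

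**Figure D4:**
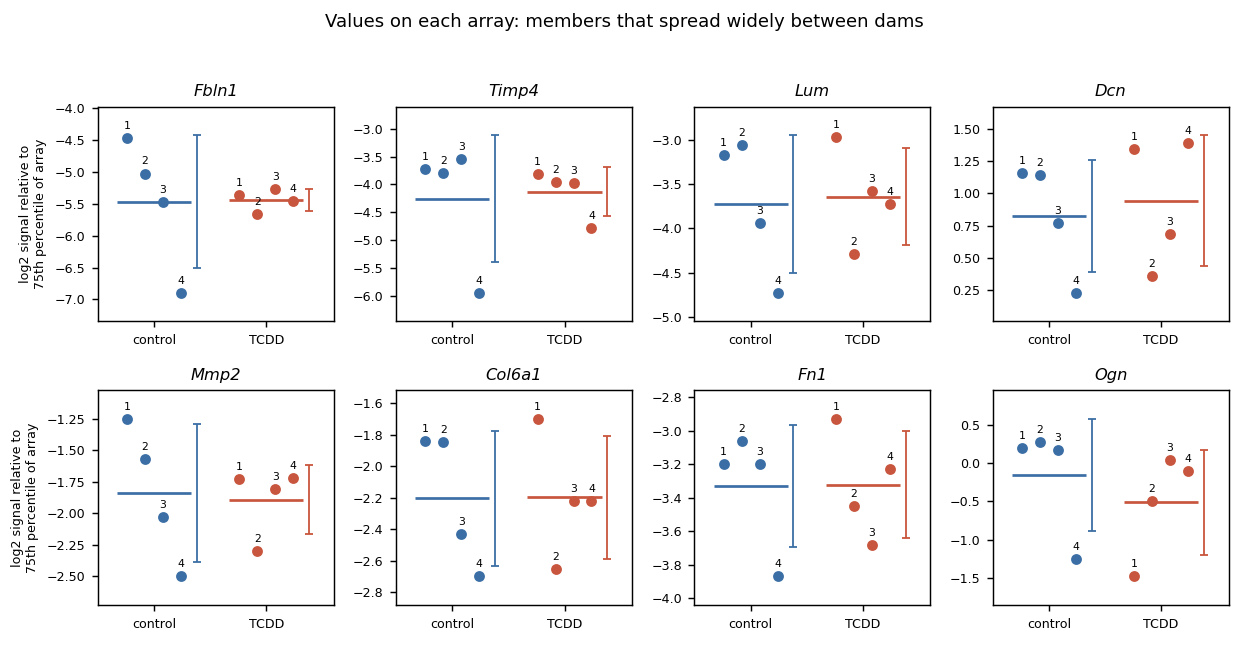
Log2 signal relative to the array's 75th percentile (vertical axes, each gene on its own scale) of 8 members that spread widely between dams, with a point and replicate number for each array, the group mean as a line and the SD as a bracket (n = 4 per group). Control replicate 4 is the lowest of the 8 arrays in every panel but that of Ogn, where TCDD replicate 1 at -1.48 lies lower. The 8 were picked by hand and are not the 8 widest members. Col23a1 (range 3.14) and Mmp12 (range 2.19), both lowest in TCDD replicate 2, are not shown.

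The low level of control replicate 4 was uneven over the classes and within them. The mean deviation from the 8-array mean in that dam was -0.58 for the Timp genes, -0.50 for fibulins and fibrillins, -0.48 for glycoproteins and small proteoglycans and -0.47 for the metalloproteinases. It was -0.09 for fibril collagens and -0.10 for basement membrane collagens, and 0.09 for laminins. Not every gene of a low class was low there. Timp4 stood at -5.95 in that dam, while Timp2, at 6.78, lay within the range of the other controls. Fbln1, Fbln2 and Fbln5 were lowest of the 8 arrays there, Fbln1 and Fbln5 with dim probes. The fibrillins Fbn1 (-2.65) and Fbn2 (-3.31) lay above both group means, and Mgp (3.92) was highest of the 8 arrays. TCDD replicate 2 was lowest for the integrin alpha genes, at -0.52, and for the other collagens, at -0.34.

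Markers of other cells also differed in control replicate 4, not all in one direction. Pdgfra, the receptor that marks fibroblasts, stood at -4.72 in control replicate 4 and between -3.51 and -2.99 in the other 7 dams. Of the same list, Tagln, Twist1 and Dpep1 were also lowest of the controls in that dam. Abcc9, Kcnj8, Notch3, Des and Acta2 were highest of the controls there. The fibroblast and pericyte list as a whole, 13 of 15 genes measured, had mean deviations of -0.18 to 0.07 in the control dams and -0.13 to 0.31 in the TCDD dams, and its summed level, on the linear scale in multiples of the array's 75th percentile, ran from 2.42 to 2.91 and from 2.39 to 3.17. The posterior lobe, glia and neural list, 8 of 10 measured, deviated by 0.09, 0.49, 0.44 and -0.47 in control replicates 1 to 4 and by -0.03, -0.36, 0.03 and -0.19 in TCDD replicates 1 to 4. Its summed level ran from 3.45 to 7.49 in controls and from 3.79 to 5.21 after TCDD. Control replicate 4 and TCDD replicate 2 were thus lowest in the list mean, but its genes were not alike. Control replicate 4 was lowest of the controls for each gene but Mag, where it was highest (-0.88). TCDD replicate 2 was lowest of its group for Avp, Oxt and Mbp, highest for Mag (-0.71) and in between for the rest. Avp (change -1.41) and Mag (0.24) stood at an unadjusted p under 0.05, in opposite directions. The folliculostellate and stem cell list, 6 of 7 measured, deviated by -0.30 in control replicate 4 and by -0.0017 to 0.12 in the other dams. Its summed level ran from 6.43 to 9.34 in controls and from 7.38 to 8.39 after TCDD. The endothelial list, 10 of 12 measured, deviated by -0.16 in control replicate 4 and -0.13 in TCDD replicate 2. Gfap, the astrocyte filament gene, Tcf21 and Tbx18 were among the markers not measured. The part of these markers in the members' values was not tested.

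Erythrocyte markers were higher after TCDD on average, and leukocyte markers were mixed. The groups overlapped for each measured erythrocyte gene but Slc4a1, whose change was 1.39 (SE 0.23, adjusted p = 0.12, limma). The erythrocyte list, 4 of 6 measured, had 4 changes above 0, all at an unadjusted p under 0.05, with a median of 1.04. Its mean deviation ran from -0.79 to 0.21 in controls, with control replicate 4 highest, and from 0.0048 to 0.77 after TCDD, and its summed level from 241 to 444 and from 351 to 535. The leukocyte list, 6 of 8 measured, had 1 change above 0 and 5 below. At an unadjusted p under 0.05, Mpo was higher (0.73), and Itgb7 (-0.94) and Csf1r (-0.30) were lower. The summed level of the list ran from 2.53 to 2.90 in controls and from 1.85 to 3.02 after TCDD. The endothelial list had 6 changes above 0 and 4 below, with a median of 0.03, and the hormone list 2 and 5, with a median of -0.0046. All 6 genes of the dioxin response list had changes above 0, and 2, Cyp1a1 and Cyp1a2, passed the adjusted threshold. The part of blood in the members' values was not tested.

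**Figure D5:**
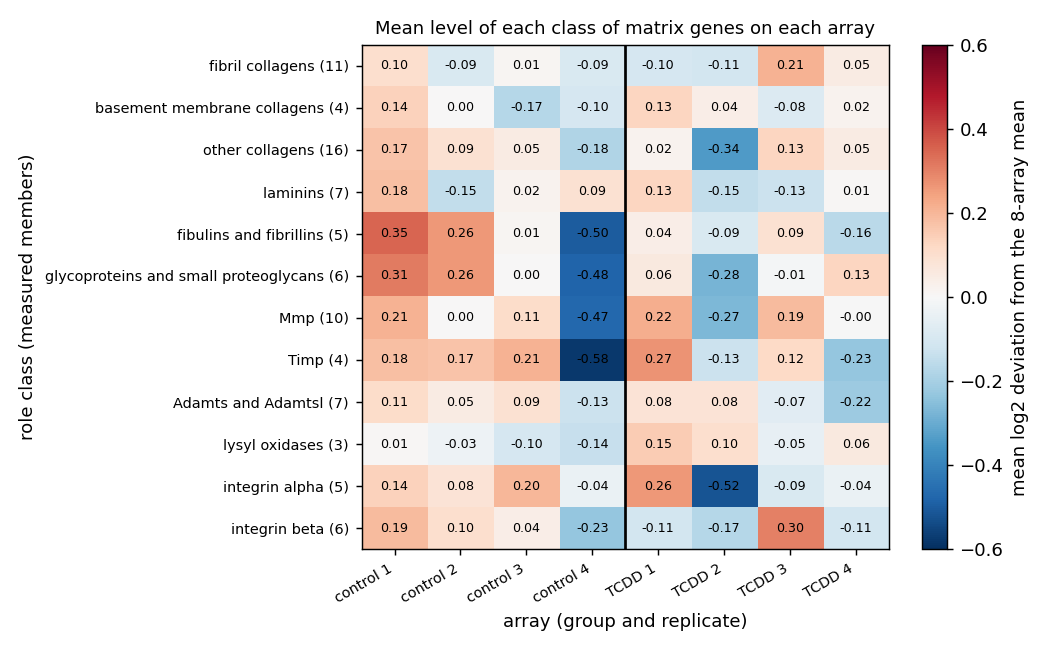
Mean deviation of the log2 signal from the 8-array mean (colour and printed value), for each class of measured matrix genes (rows) on each of the 8 arrays (columns), control to the left of the line and TCDD to the right. The lowest cells are -0.58 for Timp on control replicate 4, -0.52 for integrin alpha on TCDD replicate 2 and -0.50 for fibulins and fibrillins on control replicate 4.

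Between the groups the classes overlapped. The Timp mean was -0.0045 ± 0.38 in control and 0.0045 ± 0.23 in TCDD dams (SD, n = 4 each), and that of the metalloproteinases was -0.04 ± 0.30 and 0.04 ± 0.23. Glycoproteins and small proteoglycans stood at 0.02 ± 0.36 and -0.02 ± 0.18, fibril collagens at -0.02 ± 0.09 and 0.02 ± 0.15, and integrin alpha genes at 0.10 ± 0.10 and -0.10 ± 0.32. In each class the difference of the means was smaller than the larger SD, apart from the lysyl oxidases, at -0.07 ± 0.06 and 0.07 ± 0.09 over 3 genes. Without control replicate 4, 10 members stood at an unadjusted p under 0.05, 11.5% against 11.8% of all genes, and the median change of the members was -0.07. With all dams it was 0.0049.

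Of the 41 members that were not measured, 28 were well above background on no array with any probe, and 13 only on a few. They included 13 metalloproteinases, 11 Adamts and Adamtsl genes, 5 of the other collagens and 4 integrin alpha genes. A gene not measured here is one whose probes were too dim, which bounds its signal on this array and says nothing of its protein. Col17a1, the hemidesmosome collagen, and Itga5, a chain of the fibronectin receptor, came within 1 array of the limit, Col17a1 well above background on 3 control and 0 TCDD arrays and Itga5 on 1 and 2.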

How the data were processed

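Pituitary RNA of 4 control and 4 TCDD dams was hybridised to 8 Agilent 1-colour arrays, per the labels. The deposited scanner intensities (spot, local background and background-subtracted processed signal) come from Agilent Feature Extraction 10.7.1.1, with probe positions on rn4, per the file headers. The deposited series table of intensities was an alternative: its columns share 1 distribution (99.3% of ranks or more equal the first column, median 56.3), and how it was made is not given in the sources used here.

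The matrix genes, marker lists and pathway list were chosen with earlier results of these data known, so no count is independent support. Gene names are those in the files, updated through a RefSeq table of GRCr8: among 30367 probes, accessions placed 18006, current symbols 2654 and older ones 559, and the remaining 9148 were left as named in the files. Log2 processed signal was taken minus the array's 75th percentile over the 42877 spots that are not controls. Outlier spots were left out, and the spots of a probe averaged. A probe was kept if well above background on at least 4 of 8 arrays, and the kept probe with the highest mean stood for its gene. Groups were compared with limma 3.58.1 (R 4.3.3; lmFit and eBayes, two-sided, no covariate, Benjamini-Hochberg over 17361 genes, threshold 0.05), and the fit was tested on simulated data. Genes named in the text were those among the 10 lowest p in each direction, without overlap between groups, at the extremes of their role class, or on a fixed list of well-known matrix genes. A few others are named beside their relatives or in a count, chosen after their values were seen. Same-numbered arrays of the groups share only their position on the slide, and their deviations correlated at -0.02, -0.07, -0.03 and -0.1, so the numbers do not pair the dams. Alternatives were other scalings, background correction, filters, probe rules, variance models, the replicate block and leaving out each array. The number of arrays limits the precision. An annotation of rn4 was not used here, so exon positions of probes are not given. The result of 1 measured member is not reported here.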

Additional observations from a re-analysis of the deposited data

Results flagged for a closer look

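In 120 sets of 4 values, the members named and the class means in each group, the most extreme dam was set against the gap that sets a value apart at the 95% level (Dixon's ratio, the gap to the nearest dam over the group's whole range). Such a gap was found in 9 sets, 7.5%, where chance gives about 5%, and 5 of the 9 were control replicate 4. That dam was set apart as low for Ogn (ratio 0.93), Col1a1 (0.923), Timp4 (0.901), Timp3 (0.856) and the mean of the Timp genes (0.942), which holds the values of Timp3 and Timp4. Timp4 was also set apart as low in TCDD replicate 4 (0.839) and Mmp2 as low in TCDD replicate 2 (0.844). Itga1 was set apart as high in TCDD replicate 1 (0.864), and the mean of the integrin beta genes as high in TCDD replicate 3 (0.864).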

How the results depend on the processing

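Under all 18 other settings 0 of the measured members passed the adjusted threshold in limma, while between 3 and 11 stood at an unadjusted p under 0.05, and the lowest adjusted p of any named member was 0.19 (Col16a1 without TCDD replicate 4). The count of all genes past the threshold, 14, was 1 with quantile normalization, 9 with median centring, 0 with normexp and quantile normalization together (1922 genes at an unadjusted p under 0.05), 1 with the deposited table, 4 with the trend and robust variance and 0 to 11 when each array was left out. The causes were not tested. Members at an unadjusted p under 0.05, 7, ranged from 3 to 11 over the arrays left out, and their median change from -0.07 to 0.04. With the replicate number as a block, 0 genes passed (1514 at an unadjusted p under 0.05) and 5 members stood at that p; the numbers share only an array position, and control replicates 1 to 4 resembled TCDD replicates 4, 3, 1 and 2 most.

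Of 47 named members 30 kept their sign throughout and 17 did not, all with changes close to 0 for their error. With the deposited table the change was -0.03 for Col6a1, -0.04 for Fbln1, -0.01 for Fn1 and -0.00015 for Itgb1. Quantile normalization gave -0.03, -0.04 and -0.01 for Col6a1, Fbln1 and Fn1. Median centring gave -0.0072 for Col4a1, -0.03 for Col6a1, Fn1 and Itgb1, -0.0064 for Fbln1 and -0.0015 for Mmp14. With normexp and quantile normalization together it was -0.01 for Col4a1, -0.02 for Col6a1, -0.0055 for Fn1, -0.05 for Itgb1 and -0.0096 for Timp4, and with the mean of a gene's probes -0.04 for Itgb1 and -0.0049 for Timp4. Over the arrays left out, the changes ran from -0.05 to 0.12 for Col4a1, -0.03 to 0.14 for Col4a2, -0.25 to 0.08 for Col4a4, -0.16 to 0.16 for Col6a1, -0.08 to 0.32 for Dcn, -0.44 to 0.36 for Fbln1, -0.20 to 0.25 for Fbln5, -0.17 to 0.13 for Fn1, -0.02 to 0.06 for Itgb1, -0.00067 to 0.30 for Itgb5, -0.04 to 0.03 for Lamc1, -0.25 to 0.31 for Lum, -0.04 to 0.13 for Mmp14, -0.28 to 0.14 for Mmp2, -0.04 to 0.16 for Sparc, -0.16 to 0.17 for Timp3 and -0.44 to 0.36 for Timp4.

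Slide and group cannot be told apart, 4 dams a group leave wide intervals, and for Itga6, Itgb8, Fbln1, Fbln5 and Lama2 the signal was not well above background on every array.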

Other observations

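The name pattern also took 5 genes that are not matrix genes, of which 3 were measured. Itgb3bp, a centromere protein that binds an integrin tail, had a change of -0.12 (SE 0.07, 95% interval -0.27 to 0.04), and its groups overlapped. Itgb1bp1, a regulator of integrin activation inside the cell, had a change of 0.10 (SE 0.09), and Col4a3bp, the ceramide transfer protein, one of 0.08 (SE 0.08). The median within-group SD of these 3 was 0.10, against 0.28 over all measured members.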
